A study of Homo sapiens with 28 samples.

Results

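The collagen genes were followed across every group of a study that exposed lung adenocarcinoma cells to TGF-β1 or to GSK126. Members were the protein-coding genes of the count table whose symbol reads COL, a type number, A and a chain number. They numbered 44 of 60487 rows, and were grouped as 11 fibrillar collagens, 8 basement membrane collagens, 10 FACIT collagens and 15 others. Collagens are extracellular proteins wound from chains of a repeated glycine motif into triple helices. Fibrillar types form the tension-bearing fibres of connective tissue, type IV forms the sheet-like network of basement membranes, and FACIT types sit on the surface of fibres. Epithelial cells usually make basement membrane collagens, while fibroblasts make most fibrillar ones, and TGF-β1 is known as a strong inducer of collagen genes in fibroblasts.

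RNA was counted in 28 libraries of A549 and H1944, human lung adenocarcinoma cell lines that carried the MGT#1-mVenus reporter, a synthetic sequence driving a fluorescent protein. Treated cells received TGF-β1 at 5 ng/ml, a cytokine, or GSK126 at 5 µM, which blocks the histone-methylating enzyme EZH2, for 11 days, and were then sorted by mVenus brightness into a high gate and a low gate. Naive cells carried the reporter, received no agent and were not sorted, so a difference from naive cells also holds whatever sorting and culture added, and these cannot be told apart. H1944 had 3 libraries, lettered A, B and C, in each of the TGF-β1 high, TGF-β1 low, GSK126 high, GSK126 low and naive groups. A549 had 3 libraries of the TGF-β1 high gate, 2 of the TGF-β1 low gate (A and C), 2 of the GSK126 high gate (A and B), 3 of the GSK126 low gate and 3 of naive cells. The counts used here held no further A549 library of the TGF-β1 low gate or the GSK126 high gate. Nothing in the labels says that the letters are separate cultures, so p-values measure the spread between these libraries, which may be technical.

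Total counts ran from 1660148 to 13280592 in H1944 and from 2013449 to 9550143 in A549. Olfactory receptor genes, which these cells are not known to use and which served as a measure of background reads, summed to as much as 305 CPM (the usual depth-scaled count, taken over each library's total) in A549 library B of the TGF-β1 high gate and 195 CPM in A549 naive library A. All 9 epithelial markers reached a group mean of 1 CPM in both lines. The lung adenocarcinoma markers NKX2-1, NAPSA, SFTPB, SFTPC and SFTPA1 summed to at most 5.3 CPM in any H1944 library and 14.4 CPM in any A549 library, so they did not mark either line. Of 10 fibroblast markers, 5 could be tested and 4 rose in H1944 under TGF-β1: LUM (7.82 ± 0.37, adjusted p = 5.95e-19), DCN (4.51 ± 0.35, adjusted p = 2.03e-13), PDGFRB (6.57 ± 0.85, adjusted p = 3.81e-08) and MFAP5 (3.02 ± 0.43, adjusted p = 2.14e-07, log2 fold change ± SE). The other tested marker, TWIST2, was not among those that rose. It had 6, 5 and 3 counts in the TGF-β1 high gate and 7, 0 and 12 in the low gate. Naive cells had 12, 5 and 61 TWIST2 counts, the last in the library of 13280592 total counts. Naive libraries A and B held 2378903 and 2404464 total counts, and the TGF-β1 libraries 1660148 to 3273676. The fibroblast list summed to between 5.41 and 116 CPM over the H1944 libraries and between 11.0 and 112 CPM over the A549 libraries, and no member was at 0 in every library. In the same comparison 1 of 1 endothelial marker tested fell, 1 of 1 leukocyte marker rose and 8 of 9 epithelial markers fell, where 63.7% of all tested genes passed (32.1% higher and 31.6% lower). Under GSK126 in H1944, 3 of 9 epithelial markers fell, 1 of 5 fibroblast markers rose, 1 of 1 endothelial marker fell and 0 of 1 leukocyte marker passed, beside 40.2% of all genes. In A549 under TGF-β1, 1 epithelial marker rose and 5 fell of 8, 3 of 9 fibroblast markers rose, and 0 of 5 endothelial and 1 of 3 leukocyte markers rose, beside 19% of all genes. In A549 under GSK126, 1 epithelial marker rose and 3 fell, 1 fibroblast marker rose, and no endothelial or leukocyte marker passed, beside 6.77% of all genes. Endothelial markers summed to at most 19.3 CPM in any H1944 library and 54.5 CPM in any A549 library, and leukocyte markers to 12.5 and 42.1 CPM. Their part in the collagen values was not tested. In libraries of many cells, fewer cells of a kind and less RNA per cell cannot be told apart.

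Collagen transcripts made up more of the library after either agent, and most under TGF-β1. In H1944 the 44 genes summed to 11685 ± 944 CPM under TGF-β1 (SD, n = 6 over both gates) and 855 ± 33.3 CPM in naive cells (n = 3), a ratio of 13.7. Under GSK126 the H1944 sum was 1661 ± 382 CPM (n = 6), 1.94 times the naive sum. In A549 it was 4906 ± 1272 CPM under TGF-β1 (n = 5), against 619 ± 155 CPM in naive cells (n = 3), a ratio of 7.92. The A549 sum under GSK126 was 909 ± 67.7 CPM (n = 5), 1.47 times the naive sum. These SDs were taken across both gates and so include any gap between them. The makeup differed as well, by shares that were not tested. In H1944 fibrillar collagens took 37.0% ± 0.72 of collagen counts in the TGF-β1 high gate and 34.9% ± 0.65 in the low gate, against 17% ± 0.65 in naive cells (SD, n = 3 each), and basement membrane collagens took 49.4% ± 1.0 and 51.1% ± 0.69, against 67.8% ± 1.8. FACIT collagens took 13.2% ± 1.5 in the H1944 GSK126 high gate and 21.7% ± 2.0 in the low gate, against 1.72% ± 0.64 in naive cells. In A549 the FACIT share was 29.6% ± 1.5 in the TGF-β1 high gate (n = 3) and 24.9% ± 0.24 in the low gate (n = 2), against 17.3% ± 3.3 in naive cells (n = 3).

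**Figure D1:**
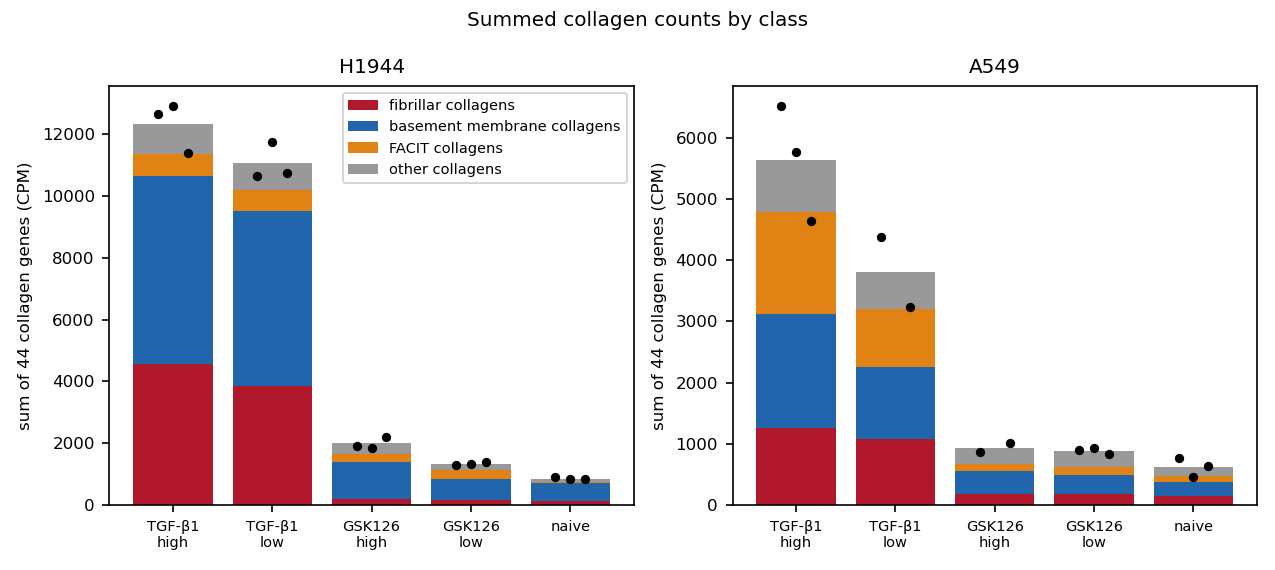
Summed CPM of the 44 collagen genes, with each library as a black point and stacked bars for the group means of the 4 classes, H1944 left and A549 right on its own scale. Every TGF-β1 library stands above every GSK126 and naive library of its line, and the FACIT part of the bar takes 29.6% of the mean in the A549 TGF-β1 high gate and 5.77% in the H1944 one.

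Single genes were tested with edgeR at an adjusted p of 0.05 over all genes of the line. In H1944, 26 collagens had enough counts to be tested. TGF-β1 raised 23 of them and lowered 2, against 32.1% of all tested genes raised and 31.6% lowered (63.7% in all). Their median log2 fold change was 3.34, beside -0.01 over all genes. GSK126 raised 18 and lowered 3 of the 26, where 21.5% of all genes rose and 18.7% fell (40.2% in all), with a median of 0.78 beside 0.01. In A549, 41 collagens were tested: TGF-β1 raised 14 and lowered 3, against 7.67% and 11.4% of all genes (19% in all), with a median of 0.96 beside 0.05. GSK126 raised 11 and lowered 2 of the 41, against 3.57% and 3.2% (6.77% in all), with a median of -0.21 beside -0.17. The A549 count under GSK126 fell to 7 without library B of its high gate or without naive library B.

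**Figure D2:**
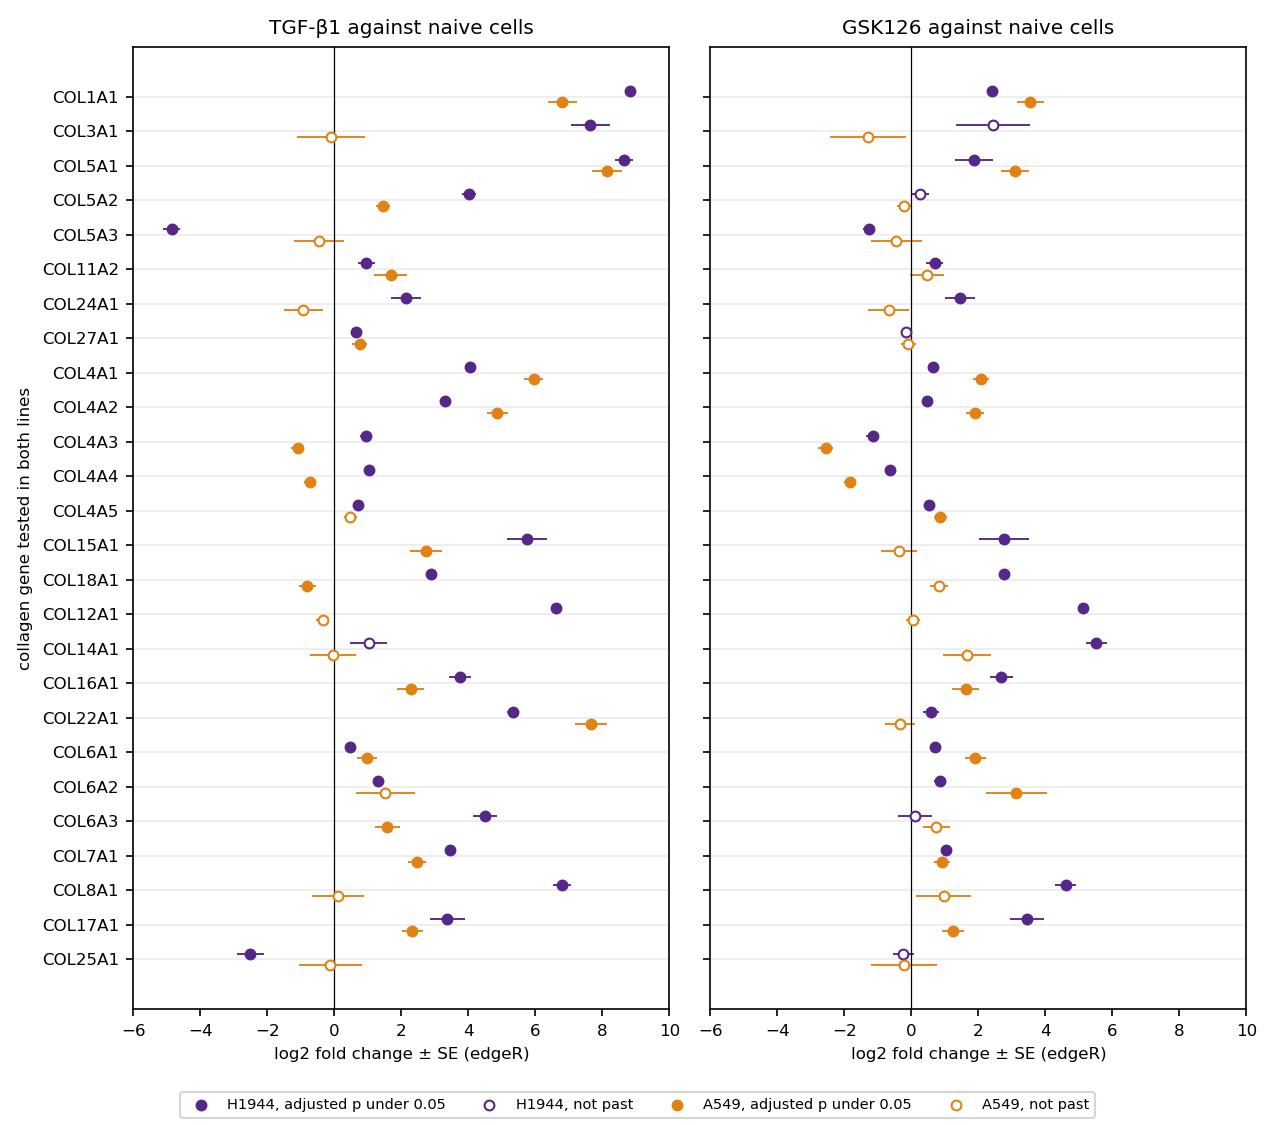
Log2 fold change ± SE against naive cells for the 26 collagens tested in both lines, with TGF-β1 left and GSK126 right, H1944 in purple and A549 in orange, and filled points past the test. COL1A1 and COL5A1 lie above 6 under TGF-β1 in both lines, while COL12A1 and COL8A1 do so in H1944 but lie near 0 in A549.

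Of the 26 genes tested in both lines, 14 rose in both under TGF-β1. Another 3, COL4A3, COL4A4 and COL18A1, rose in H1944 and fell in A549. The A549 calls of COL4A4 and COL18A1 did not hold in every alternative fit. Under GSK126, 10 rose in both lines and 2, COL4A3 and COL4A4, fell in both. Of the genes that rose in both, only COL1A1, COL4A1 and COL6A1 kept the call in every alternative fit of both lines. No gene past the test in both lines went opposite ways under GSK126.

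Of the fibrillar collagens, 7 of 8 tested rose and 1 fell in H1944 under TGF-β1, 4 rose and 1 fell under GSK126, and in A549 5 of 11 rose under TGF-β1 and 2 under GSK126. COL1A1 (ENSG00000108821.12, chr17:50183289-50201632 in GENCODE 29 on GRCh38), which encodes the main chain of type I collagen, rose in both lines under both agents. Values are given in the order of the replicate letters. It had 4108, 4328 and 3719 CPM in the TGF-β1 high gate and 3271, 3753 and 3308 CPM in the low gate, against 12.6, 10.4 and 6.85 CPM in naive cells (log2 fold change 8.83 ± 0.15, adjusted p = 2.95e-31). GSK126 brought it to 63.3, 58.0 and 81.4 CPM in the high gate and 33.2, 39.1 and 36.0 CPM in the low gate (2.40 ± 0.15, adjusted p = 6.82e-15). The 3 levels formed separate steps with no overlap between libraries. In A549 COL1A1 had 465, 383 and 286 CPM in the TGF-β1 high gate and 297 and 172 CPM in the low gate, against 3.91, 1.01 and 2.44 CPM in naive cells (6.80 ± 0.43, adjusted p = 2.53e-09). Under GSK126 its A549 values were 21.8 and 45.1 CPM in the high and 16.5, 32.3 and 28.5 CPM in the low gate (3.55 ± 0.40, adjusted p = 1.53e-05). The same order of treatments held in A549, again with no overlap.

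COL1A2, which encodes the partner chain that normally joins COL1A1 in type I collagen, stayed far below it under TGF-β1. In H1944 it read 0 to 3.14 CPM under TGF-β1 and 0 to 0.527 CPM in naive cells, too few counts to be tested. The 6 TGF-β1 libraries held 32 counts and the 3 naive libraries 7, a ratio of 5.64 (exact 95% counting interval 2.45 to 15.1). Group means of olfactory receptor genes read 0.0229 CPM per kb in the H1944 TGF-β1 high gate and 0.0361 in the low gate, against 0.0094 in naive cells. Their part in that ratio was not tested. Scaled per kb of exon, COL1A2 stood at 0.041% of the COL1A1 level in the H1944 TGF-β1 high gate and 0.062% in the low gate. The A549 figures were 1.88% in the TGF-β1 high gate and 2.03% in the low gate. COL1A2 did not pass the test in A549 under TGF-β1 (0.86 ± 0.84, adjusted p = 0.646), where the high gate read 0, 21.3 and 2.93 CPM, the middle value coming from library B, the one richest in background reads.

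Type III collagen, a fibre protein of vessel walls and healing tissue, appeared in H1944 at a low level. COL3A1 had 12.2, 21.7 and 15.3 CPM in the TGF-β1 high gate and 15.9, 20.5 and 17.2 CPM in the low gate, against 0, 0 and 0.0753 CPM in naive cells (7.64 ± 0.59, adjusted p = 2.31e-13). The naive group held 1 count, so the ratio of 306 has an exact 95% counting interval of 54.4 to 12130.0. Without naive library C, which held that count, the log2 value of COL3A1 was 8.70, which does not measure the fold. Its level per kb was 0.58% of that of COL1A1 in the TGF-β1 high gate and 0.75% in the low gate. COL3A1 missed the threshold under GSK126 in H1944 (2.43 ± 1.11, adjusted p = 0.0803) and under TGF-β1 in A549 (-0.10 ± 1.02, adjusted p = 0.982).

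The chains of type V collagen, which starts the assembly of type I fibres, went separate ways. COL5A1 had 267, 295 and 229 CPM in the H1944 TGF-β1 high gate and 179, 190.3 and 188 CPM in the low gate, against 0, 0 and 0.753 CPM in naive cells (8.64 ± 0.28, adjusted p = 8.39e-24). All 10 naive counts came from library C, the deepest. The pooled ratio was 403 (exact 95% counting interval 219 to 840.3). Without library C the log2 value was 12.39, but no naive counts were then left, so it does not measure the fold. COL5A2 rose as well, with 86.5, 84.1 and 79.0 CPM in the high and 83.4, 57.8 and 67.4 CPM in the low gate, against 4.62, 2.91 and 5.50 CPM (4.03 ± 0.21, adjusted p = 3.54e-18). COL5A3 moved the other way. Its values were 1.36, 0 and 1.18 CPM in the TGF-β1 high gate and 2.44, 3.61 and 1.96 CPM in the low gate, against 39.9, 48.7 and 47.2 CPM in naive cells (-4.86 ± 0.26, adjusted p = 9.25e-18). GSK126 also lowered COL5A3 in H1944, to 12.3, 18.3 and 25.5 CPM in the high and 26.2, 22 and 22.4 CPM in the low gate (-1.27 ± 0.16, adjusted p = 6.37e-08). On the per-kb scale COL5A3 was the fourth most abundant collagen of naive H1944 cells, at 6.71 CPM per kb, and under TGF-β1 it read 0.125 in the high and 0.396 in the low gate.

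In A549 COL5A1 was again the type V chain with the largest change. It had 579, 531 and 384 CPM in the TGF-β1 high gate and 558 and 368 CPM in the low gate, against 3.04, 0.145 and 1.52 CPM in naive cells (8.14 ± 0.44, adjusted p = 4.29e-10; 9.04 without naive library A). COL5A2 was already abundant in naive A549 cells at 106, 83.2 and 91.6 CPM and reached 309.6, 227 and 267 CPM in the TGF-β1 high and 276 and 319 CPM in the low gate (1.45 ± 0.21, adjusted p = 5.51e-05). Per kb, COL5A2 led all collagens of naive A549 cells, at 12.6 CPM per kb. A549 COL5A3 stayed between 0 and 5.99 CPM in the 5 TGF-β1 libraries and between 1.74 and 4.12 CPM in naive cells (-0.47 ± 0.74, adjusted p = 0.827). Under GSK126 A549 COL5A1 had 12.6 and 16.5 CPM in the high and 13.8, 10.9 and 12.5 CPM in the low gate (3.10 ± 0.42, adjusted p = 9.98e-05; 3.89 without naive library A), while COL5A2 did not pass (-0.21 ± 0.21, adjusted p = 0.649). In H1944 under GSK126 COL5A1 passed (1.87 ± 0.56, adjusted p = 0.00802) on 2.86, 2.07 and 9.63 CPM in the high and 1.59, 1.73 and 0.288 CPM in the low gate. These values overlap those of naive cells, and the call was lost with the low gate alone. Without naive library C, and so with no naive counts, the value was 5.63, which does not measure the fold. COL5A2 did not pass there (0.26 ± 0.26, adjusted p = 0.455).

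Among the minor fibrillar collagens COL24A1, known from developing bone, rose in H1944 under TGF-β1 (2.13 ± 0.45, adjusted p = 0.000111) and under GSK126 (1.44 ± 0.45, adjusted p = 0.0104). The second call was lost without naive library B (adjusted p = 0.053) and with the low gate alone. COL11A2, a cartilage fibre chain, rose under TGF-β1 in H1944 (0.95 ± 0.25, adjusted p = 0.00123) and in A549 (1.68 ± 0.49, adjusted p = 0.0203), and under GSK126 in H1944 (0.69 ± 0.24, adjusted p = 0.0214). The GSK126 call was lost in 3 of 15 fits without a library and with the low gate alone. COL27A1, another cartilage chain, rose under TGF-β1 in H1944 (0.65 ± 0.11, adjusted p = 3.01e-06) and in A549 (0.76 ± 0.22, adjusted p = 0.0179) and did not pass under GSK126 in H1944 (-0.17 ± 0.11, adjusted p = 0.223) or in A549 (-0.09 ± 0.22, adjusted p = 0.875). The A549 calls of COL11A2 and COL27A1 were each lost in 2 of the 13 fits that left out a library, with adjusted p up to 0.1 and 0.0909. COL2A1 and COL11A1, the main chains of cartilage fibres, were tested in A549 alone and passed in no comparison with naive cells.

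**Figure D3:**
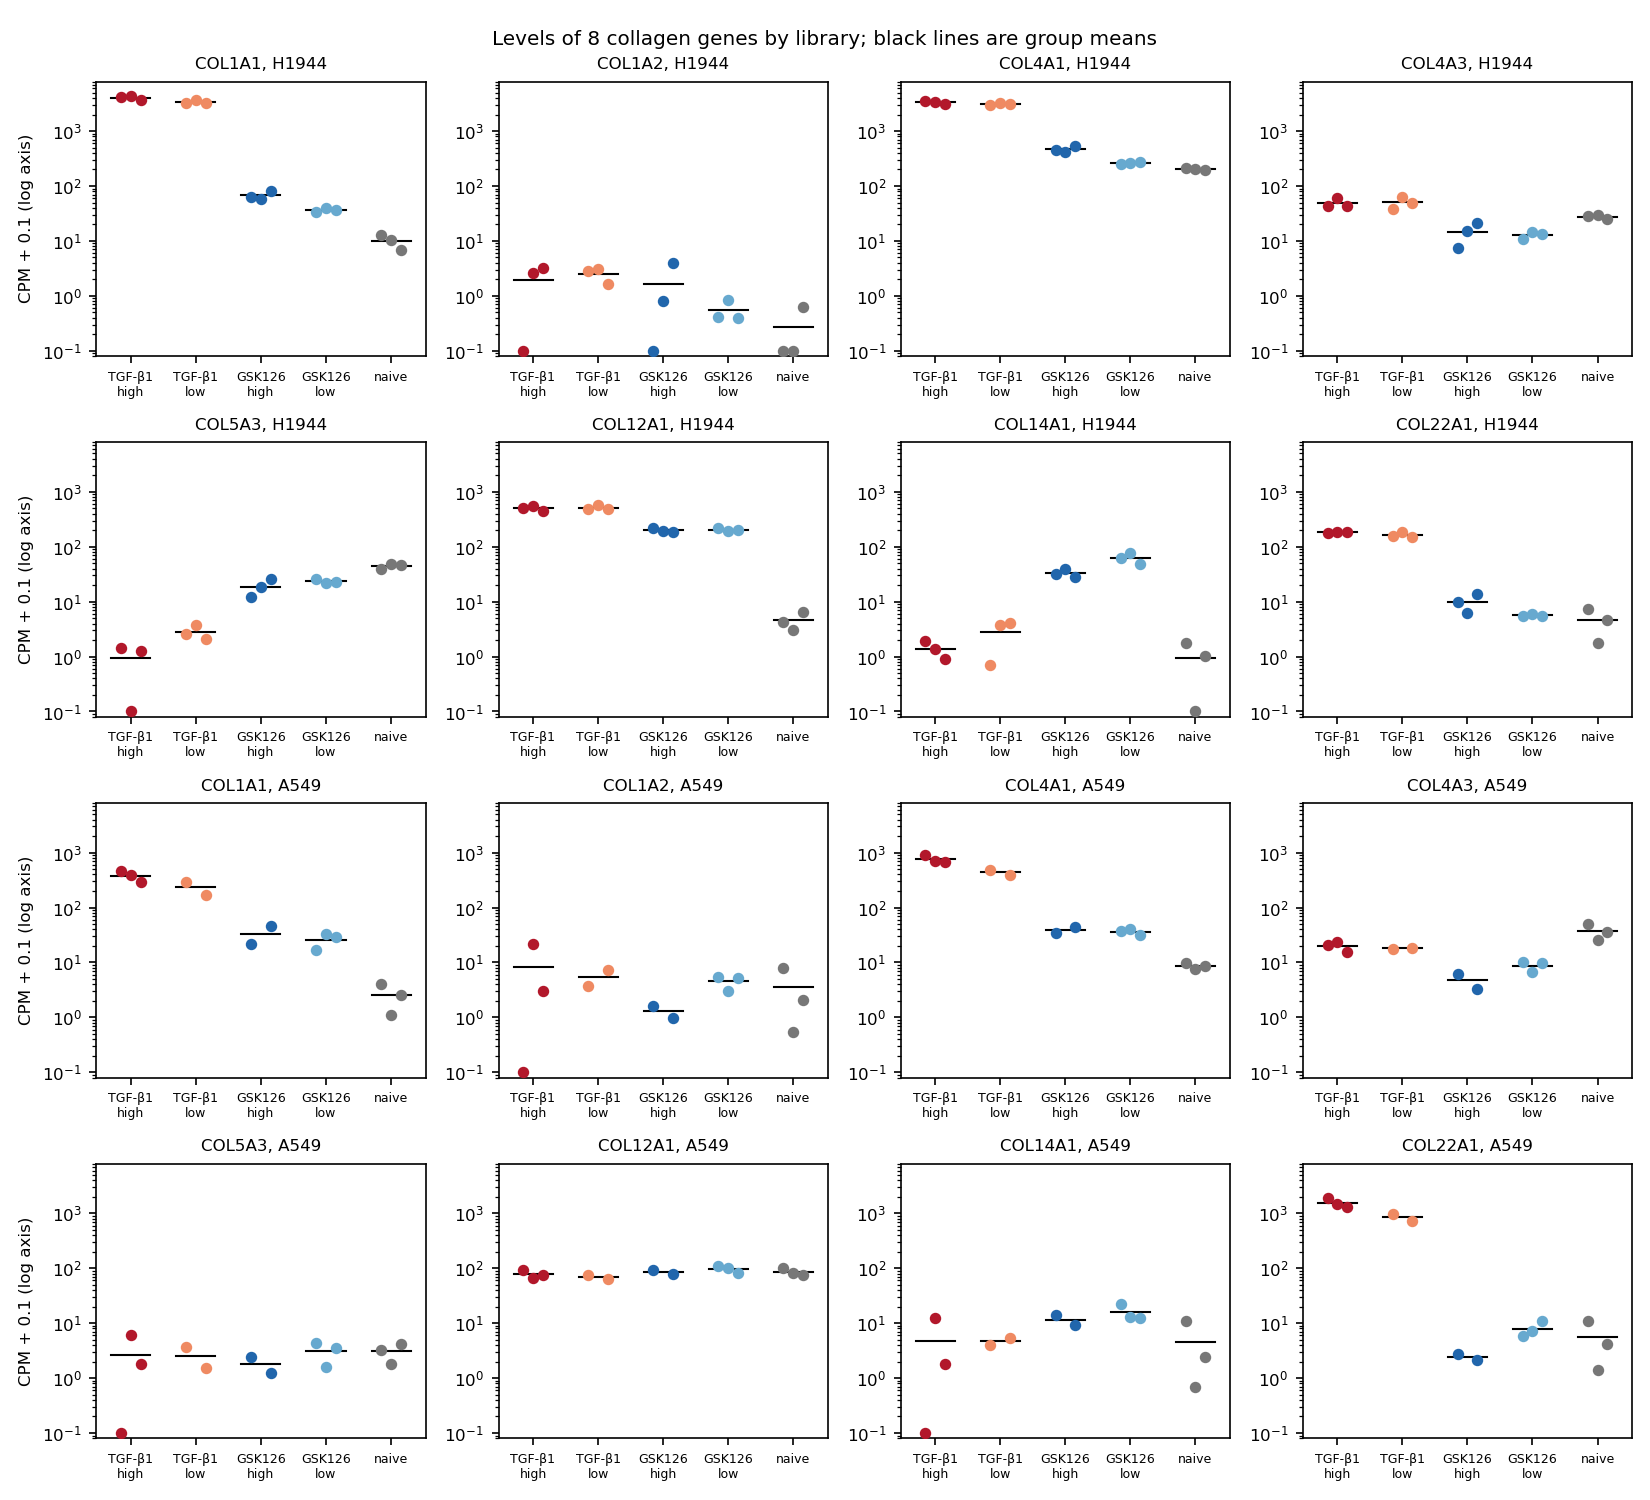
CPM + 0.1 of 8 collagen genes in every library on a log axis, the upper 2 rows for H1944 and the lower 2 for A549, with black lines at group means. COL1A1 climbs in steps and COL1A2 does not, COL5A3 is lowest under TGF-β1 in H1944, and COL14A1 is highest under GSK126 in H1944.

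Type IV collagen is the network protein of basement membranes, and its genes lie head to head in pairs that share a start region. COL4A1 and COL4A2 passed the test in the same direction as each other in all 4 comparisons with naive cells, as did COL4A3 and COL4A4. Sequence from between the start sites of these pairs is therefore shown, read on the plus strand from RefSeq promoter windows of GRCh38.p14. For COL4A1 and COL4A2, whose RefSeq starts lie 127 bases apart on chromosome 13, a stretch of 30 bases at chr13:110307167-110307196 around a CCAAT box is given, with that motif in capitals. It lies between both RefSeq starts, while the GENCODE 29 bounds of both genes reach over it. For COL4A4 and COL4A3, whose RefSeq starts lie 419 bases apart on chromosome 2, the 111 bases at chr2:227164454-227164564 are given, which lie between the starts in RefSeq and in GENCODE 29, with a GC box (GGGCGG) in capitals.
COL4A1 and COL4A2: gggccgagctccCCAATttgttggcgctgc
COL4A4 and COL4A3: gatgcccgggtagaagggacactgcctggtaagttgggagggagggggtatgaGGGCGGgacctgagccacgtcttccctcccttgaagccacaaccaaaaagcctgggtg
Motifs were searched on both strands in the windows of 300 bases that 32 of the 44 members had. The CCAAT box (CCAAT or ATTGG) was in 31.2% of the collagen windows and 35.7% of all 27305 windows, the GC box (GGGCGG or CCGCCC) in 56.2% and 44.6%, the TATA box (TATAAA or TTTATA) in 15.6% and 12%, and the SMAD element (CAGAC or GTCTG) in 40.6% and 45%. A match describes the letters and not a site in use.

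Of the basement membrane collagens, all 7 tested rose in H1944 under TGF-β1, 5 rose and 2 fell under GSK126, and of 8 in A549 3 rose and 3 fell under TGF-β1 and 3 rose and 2 fell under GSK126. COL4A1 and COL4A2, the chains of the common basement membrane network, were the most abundant collagens of naive H1944 cells per kb and rose further under both agents. COL4A1 had 3480.0, 3412 and 3117 CPM in the H1944 TGF-β1 high gate and 3035, 3259 and 3060.2 CPM in the low gate, against 216, 204 and 199 CPM in naive cells (4.04 ± 0.09, adjusted p = 3.61e-28). COL4A2 had 2524, 2471 and 2226 CPM in the TGF-β1 high gate and 2211, 2302 and 2169 CPM in the low gate, against 251, 254 and 233 CPM (3.31 ± 0.09, adjusted p = 1.64e-25). Every TGF-β1 library exceeded every naive library for both. With GSK126 the H1944 COL4A1 values were 455, 423 and 529 CPM in the high and 254, 264 and 277 CPM in the low gate (0.66 ± 0.08, adjusted p = 1.4e-08), and COL4A2 moved by 0.47 ± 0.08 on the log2 scale (adjusted p = 1.68e-05), a call lost with the low gate alone.

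In A549, where the pair was low before treatment, COL4A1 had 914, 712 and 673 CPM in the TGF-β1 high gate and 485 and 398 CPM in the low gate, against 9.71, 7.38 and 8.54 CPM in naive cells (5.95 ± 0.29, adjusted p = 1.32e-10). COL4A2 had 1129, 927 and 743 CPM in the high and 695 and 457 CPM in the low gate, against 21.0, 18.4 and 28.2 CPM (4.86 ± 0.31, adjusted p = 3.03e-09). GSK126 raised A549 COL4A1 to 34.0 and 43.3 CPM in the high and 36.6, 40.2 and 31.1 CPM in the low gate (2.08 ± 0.25, adjusted p = 2.58e-05). It also raised COL4A2 (1.91 ± 0.27, adjusted p = 0.000185). The ratio within the pair shifted with TGF-β1: per kb, COL4A1 stood at 181% of COL4A2 in the H1944 TGF-β1 high gate and 110% in H1944 naive cells, and at 108% in the A549 TGF-β1 high gate and 49.6% in A549 naive cells. That ratio was not tested, and its level in any group depends on the exon lengths used.

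COL4A3 and COL4A4 belong to the specialised network of kidney glomeruli and lung alveoli. GSK126 lowered both in both lines. In H1944 COL4A3 had 7.47, 14.9 and 20.7 CPM in the GSK126 high gate and 10.5, 14.3 and 13.2 CPM in the low gate, against 27.7, 29.5 and 24.6 CPM in naive cells (-1.15 ± 0.19, adjusted p = 8.44e-06), and COL4A4 changed by -0.62 ± 0.11 (adjusted p = 1.27e-05). In A549 COL4A3 had 6.11 and 3.14 CPM in the GSK126 high gate and 10.0, 6.46 and 9.50 CPM in the low gate, against 49.4, 25.6 and 35.1 CPM (-2.56 ± 0.23, adjusted p = 9.62e-07), and COL4A4 had 13.0 and 15.1 CPM in the high and 17.6, 12.9 and 11.2 CPM in the low gate, against 58.7, 41.2 and 46.3 CPM (-1.82 ± 0.18, adjusted p = 3.68e-06). Treated and naive libraries did not overlap in any of these comparisons. TGF-β1 parted the lines. In H1944 COL4A3 rose to 42.6, 60.0 and 43.6 CPM in the high and 37.6, 63.8 and 49.0 CPM in the low gate (0.94 ± 0.18, adjusted p = 2.17e-05), and COL4A4 to 148, 150.3 and 139.8 CPM and 107, 155 and 134 CPM, against 70.6, 71.9 and 69.8 CPM in naive cells (1.03 ± 0.10, adjusted p = 1.82e-10). In A549 COL4A3 fell to 20.3, 23.7 and 15.1 CPM in the high and 17.7 and 18.6 CPM in the low gate (-1.09 ± 0.20, adjusted p = 0.000466), and COL4A4 fell to 32.6, 36.6 and 28.6 CPM and 34.4 and 31.5 CPM (-0.72 ± 0.17, adjusted p = 0.00486). This A549 call of COL4A4 was lost when no filter on low counts was applied.

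COL4A5, which joins COL4A3 and COL4A4, moved little. It rose in H1944 under TGF-β1 (0.71 ± 0.16, adjusted p = 0.00031) and GSK126 (0.54 ± 0.16, adjusted p = 0.00639) and in A549 under GSK126 (0.87 ± 0.20, adjusted p = 0.00999), and did not pass in A549 under TGF-β1 (0.47 ± 0.19, adjusted p = 0.109). The GSK126 calls were lost without naive library B in H1944 (log2 0.39, adjusted p = 0.0612) and in 3 of 13 such fits in A549 (adjusted p up to 0.098). In each line the COL4A5 call under GSK126 was also lost with the low gate alone. Its head-to-head neighbour COL4A6 read 22.1 and 16.8 CPM in the A549 GSK126 high gate and 8.36, 16.4 and 16.0 CPM in the low gate, against 8.26, 4.05 and 8.54 CPM in A549 naive cells, which did not pass (1.17 ± 0.51, adjusted p = 0.23) where COL4A5 did, and had too few counts in H1944.

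COL15A1 and COL18A1 are proteoglycan collagens of the basement membrane zone, the second being the source of endostatin. COL18A1 had 111, 93.7 and 97.4 CPM in the H1944 TGF-β1 high gate and 72.7, 84.3 and 79.1 CPM in the low gate, against 10.1, 19.5 and 10.9 CPM in naive cells (2.89 ± 0.15, adjusted p = 6.9e-18). GSK126 brought H1944 COL18A1 to 135, 131 and 152 CPM in the high and 51.7, 63.3 and 72.5 CPM in the low gate (2.78 ± 0.15, adjusted p = 1.2e-16). A549 COL18A1 fell under TGF-β1 to 48.9, 40.3 and 32.8 CPM in the high and 56.1 and 33.2 CPM in the low gate, against 62.5, 50.3 and 86.3 CPM (-0.81 ± 0.25, adjusted p = 0.0284), with 1 low-gate value inside the naive range. That call was lost without low-gate library C or naive library C (log2 -0.53, adjusted p = 0.218 without the second). It was also lost with no filter on low counts, with the replicate letter as a block and with the low gate alone. Under GSK126 A549 COL18A1 missed the threshold (0.83 ± 0.26, adjusted p = 0.0656), although all 5 treated libraries lay above the naive ones.

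COL15A1 had 13.1, 15 and 11.8 CPM in the H1944 TGF-β1 high gate and 14.4, 15.1 and 7.84 CPM in the low gate, against 0, 0 and 0.301 CPM (5.76 ± 0.60, adjusted p = 3.44e-10). Its 4 naive counts all fell in library C, giving a pooled ratio of 57.7 (exact 95% counting interval 22.2 to 213.9). COL15A1 also passed in H1944 under GSK126 (2.78 ± 0.75, adjusted p = 0.00297), on 0.659, 2.76 and 4.81 CPM in the high and 1.91, 1.98 and 0.288 CPM in the low gate, which overlap the naive values. Without library C, COL15A1 read 8.29 under TGF-β1 and 5.31 under GSK126. No naive counts were then left, so neither value measures the COL15A1 fold. In A549 it had 21.0, 20.8 and 11.8 CPM in the TGF-β1 high gate and 14.8 and 11.9 CPM in the low gate, against 3.77, 0.434 and 2.29 CPM (2.74 ± 0.48, adjusted p = 0.000363; 3.39 without naive library A), and it did not pass under GSK126 (-0.37 ± 0.55, adjusted p = 0.776).

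Of the FACIT collagens, 3 of 4 tested rose in H1944 under TGF-β1 and all 4 under GSK126, while in A549 2 of 9 rose under TGF-β1 and 1 under GSK126. COL12A1, which coats type I fibres, had 497, 559.7 and 453 CPM in the H1944 TGF-β1 high gate and 486, 572 and 488 CPM in the low gate, against 4.20, 2.91 and 6.25 CPM in naive cells (6.63 ± 0.15, adjusted p = 1.48e-27). GSK126 brought it to 219, 193 and 184 CPM in the high and 219, 195 and 202 CPM in the low gate (5.12 ± 0.15, adjusted p = 3.29e-23). Its A549 values spanned 64.0 to 94.5 CPM under TGF-β1, 78.4 to 109 CPM under GSK126 and 73.8 to 103 CPM in naive cells, and passed neither test (-0.35 ± 0.20, adjusted p = 0.301 under TGF-β1 and 0.04 ± 0.21, adjusted p = 0.939 under GSK126). The ranges of the 3 A549 conditions overlapped, at a level that H1944 lacked before treatment.

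COL14A1, a close relative of COL12A1, rose in H1944 under GSK126. It had 31.6, 39.4 and 27.9 CPM in the GSK126 high gate and 61.9, 78.4 and 48.3 CPM in the low gate, against 1.68, 0 and 0.904 CPM in naive cells (5.52 ± 0.32, adjusted p = 8.33e-16). With TGF-β1 it read 1.81, 1.25 and 0.786 CPM in the high and 0.611, 3.61 and 3.92 CPM in the low gate, which did not pass (1.03 ± 0.55, adjusted p = 0.104). The direct test of TGF-β1 against GSK126 gave -4.50 ± 0.25, adjusted p = 6.51e-17, with no overlap. In A549 COL14A1 missed the threshold under GSK126 (1.67 ± 0.72, adjusted p = 0.221), and naive library A, one of the background-rich ones, gave the first of the 3 naive values of 10.7, 0.578 and 2.29 CPM. These were 74, 4 and 15 counts, in libraries of 6559146 to 6915146 total counts. The A549 GSK126 libraries, of 2013449 to 4783344 total counts, held 36 and 32 COL14A1 counts in the high gate and 106, 26 and 28 in the low gate.

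COL22A1, a collagen of tissue junctions such as muscle and tendon, was the top collagen of TGF-β1-treated A549 cells per kb, at 198.7 CPM per kb in the high gate and 109 in the low gate. It had 1865, 1470.1 and 1332 CPM in the TGF-β1 high gate and 980.4 and 722 CPM in the low gate, against 11.0, 1.30 and 4.12 CPM in naive cells (7.66 ± 0.47, adjusted p = 1.57e-09). Without naive library A the log2 value was 8.62. GSK126 did not move it past the test in A549 (-0.34 ± 0.46, adjusted p = 0.754). In H1944 it had 179.8, 186 and 186 CPM in the TGF-β1 high gate and 160.1, 184 and 150.5 CPM in the low gate, against 7.15, 1.66 and 4.52 CPM (5.34 ± 0.17, adjusted p = 1.69e-23). The H1944 GSK126 call (0.59 ± 0.23, adjusted p = 0.0438) was lost in 12 of the 15 fits that left out a library, with adjusted p up to 0.215. It was also lost with the low gate alone. COL16A1, which links fibres and other matrix, rose in all 4 comparisons with naive cells: in H1944 under TGF-β1 (3.75 ± 0.33, adjusted p = 4.39e-12) and GSK126 (2.69 ± 0.34, adjusted p = 6.45e-08), and in A549 under TGF-β1 (2.28 ± 0.41, adjusted p = 0.000415) and GSK126 (1.62 ± 0.41, adjusted p = 0.021, lost in 6 of 13 fits without a library). Its naive H1944 values were 0.841, 0 and 1.58 CPM, and without library C its H1944 values were 5.18 under TGF-β1 and 4.12 under GSK126.

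**Figure D4:**
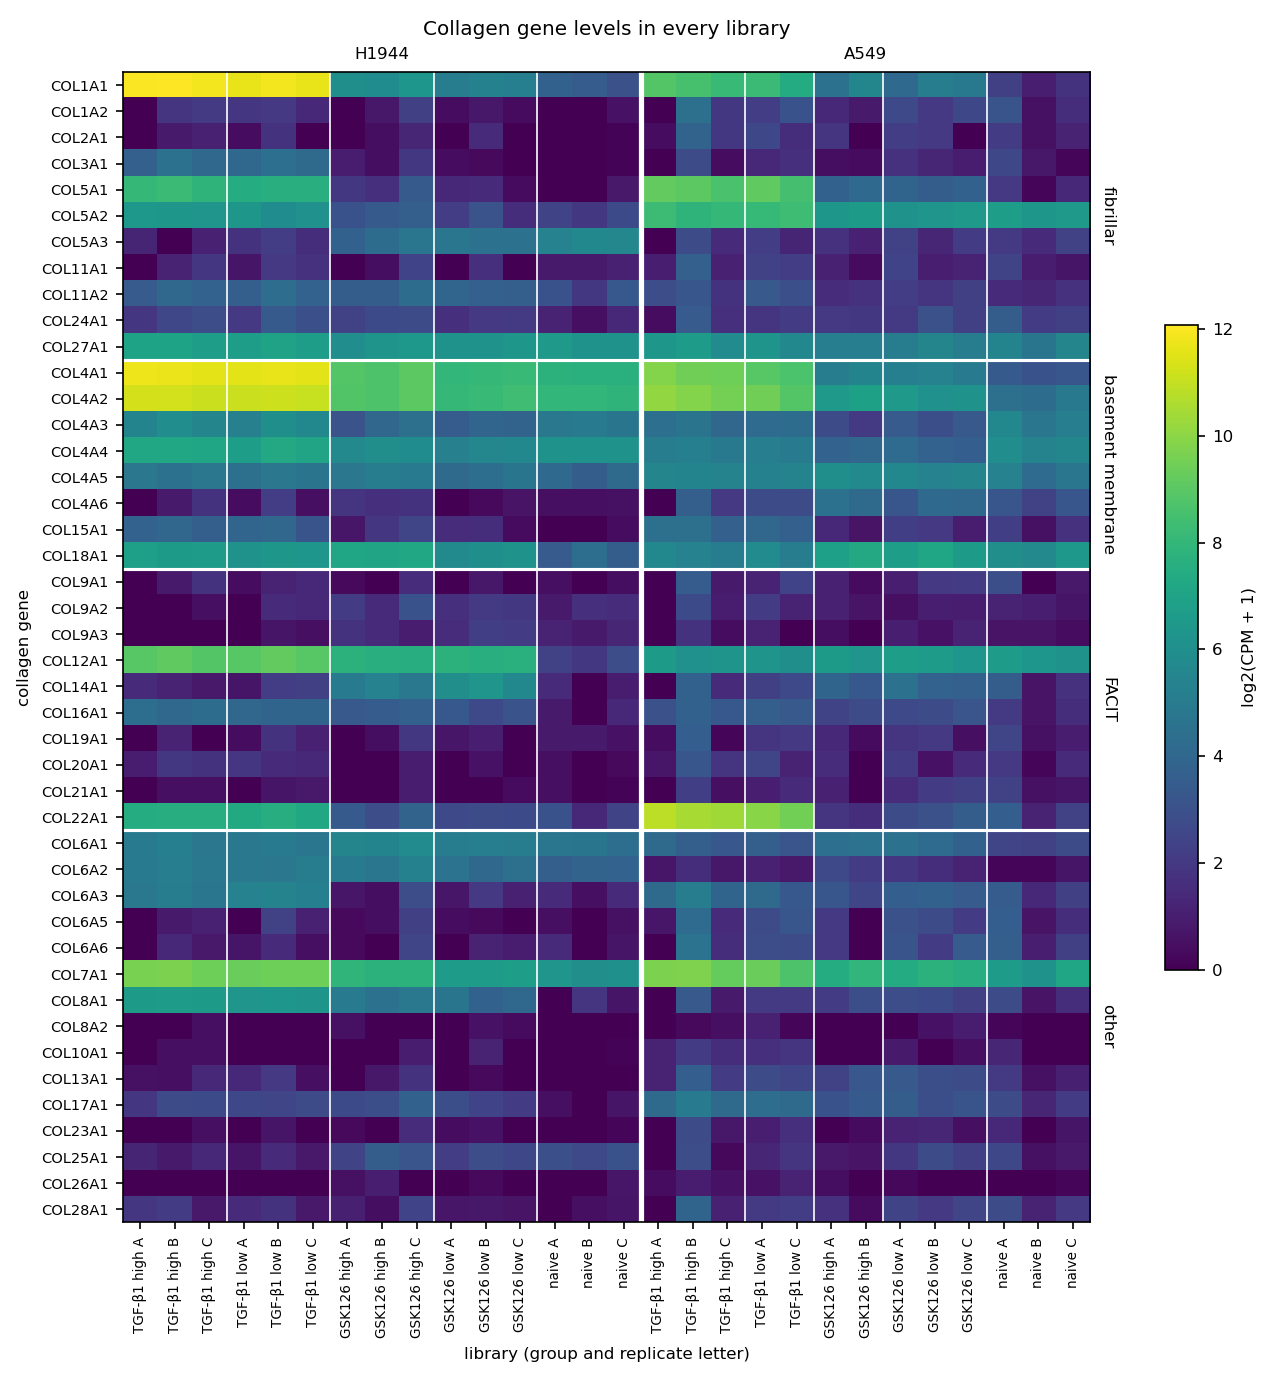
Log2(CPM + 1) of the 44 collagen genes in all 28 libraries, H1944 left and A549 right, with genes ordered by class. Library B of the A549 TGF-β1 high gate and naive library A show low values for many genes that neighbouring libraries lack.

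Of the other collagens, 6 of 7 tested rose and 1 fell in H1944 under TGF-β1 and 5 rose under GSK126, while in A549 4 of 13 rose under TGF-β1 and 5 under GSK126. COL7A1, which forms the anchoring fibrils under epithelia, rose in all 4 comparisons with naive cells. It had 805, 817 and 692 CPM in the H1944 TGF-β1 high gate and 638, 675 and 679.8 CPM in the low gate, against 77.3, 62.0 and 65.8 CPM in naive cells (3.46 ± 0.10, adjusted p = 2.04e-25). H1944 under GSK126 gave 235, 218 and 217 CPM in the high and 102, 97.5 and 108 CPM in the low gate (1.04 ± 0.09, adjusted p = 2.38e-11). In A549 it had 840.2, 856 and 602 CPM in the TGF-β1 high gate and 634 and 423 CPM in the low gate, against 99.6, 71.9 and 135 CPM (2.47 ± 0.27, adjusted p = 1.57e-06). The A549 GSK126 call (0.91 ± 0.25, adjusted p = 0.0334) was lost in 6 of 13 fits without a library, with log2 0.72 and adjusted p = 0.407 without high-gate library B.

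Type VI chains, which build beaded microfilaments around cells, rose unevenly. COL6A3 had 27.2, 33.3 and 25.9 CPM in the H1944 TGF-β1 high gate and 39.4, 41.0 and 36.0 CPM in the low gate, against 1.68, 0.416 and 1.73 CPM in naive cells (4.50 ± 0.35, adjusted p = 3.21e-13). COL6A1 and COL6A2 were already present and moved less, by 0.47 ± 0.14 (adjusted p = 0.00432; log2 0.30 and adjusted p = 0.135 without naive library C) and 1.31 ± 0.17 (adjusted p = 2.32e-08). GSK126 raised both in H1944 (0.71 ± 0.13, adjusted p = 4.91e-05 and 0.84 ± 0.16, adjusted p = 8.34e-05) and did not move COL6A3 past the test (0.10 ± 0.51, adjusted p = 0.902). Per kb, COL6A3 stood at 25.0% of COL6A1 in the H1944 TGF-β1 high gate and 37.8% in the low gate, against 1.49% in naive cells.

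In A549 COL6A2 had 6 counts over the 3 naive libraries. GSK126 gave 5.34 and 3.42 CPM in the high and 2.72, 1.99 and 1.30 CPM in the low gate, against 0.145, 0.145 and 0.610 CPM in naive cells (3.14 ± 0.92, adjusted p = 0.0481), a pooled ratio of 10.2 (exact 95% counting interval 4.37 to 29.4). All 5 treated values exceeded all naive ones, but the call was lost in 11 of 13 fits without a library, with adjusted p up to 0.173 (log2 4.13 without naive library C). COL6A1 had 20.2 and 23.4 CPM in the GSK126 high gate and 22, 17.4 and 12.5 CPM in the low gate, against 4.78, 4.05 and 6.10 CPM (1.91 ± 0.31, adjusted p = 0.000588). Under TGF-β1 A549 COL6A1 (0.98 ± 0.30, adjusted p = 0.0286) and COL6A3 (1.58 ± 0.38, adjusted p = 0.00556) passed, the first being lost in 5 of 13 fits without a library and the second without low-gate library A (adjusted p = 0.0515), and COL6A2 did not (1.52 ± 0.88, adjusted p = 0.303).

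COL8A1, a short-chain collagen of vessel walls and the cornea, was near absent from naive H1944 cells and rose with both agents. It had 94.7, 103 and 93.5 CPM in the TGF-β1 high gate and 77.0, 80.7 and 75.6 CPM in the low gate, against 0, 2.5 and 0.602 CPM in naive cells (6.79 ± 0.28, adjusted p = 5.74e-21), and 29.7, 22.8 and 27.9 CPM in the GSK126 high and 24.6, 12.4 and 15.5 CPM in the low gate (4.60 ± 0.32, adjusted p = 8.73e-14). It passed in A549 under neither TGF-β1 (0.11 ± 0.79, adjusted p = 0.976) nor GSK126 (0.96 ± 0.81, adjusted p = 0.592). Without naive library C the H1944 values were 6.13 under TGF-β1 and 3.94 under GSK126. COL17A1, a membrane-spanning collagen of hemidesmosomes, rose in H1944 under TGF-β1 (3.37 ± 0.53, adjusted p = 1.19e-06) and GSK126 (3.46 ± 0.51, adjusted p = 1.15e-06), where naive cells held 9 counts (4.39 and 4.48 without naive library C), and in A549 under TGF-β1 (2.33 ± 0.31, adjusted p = 1.9e-05) and GSK126 (1.25 ± 0.32, adjusted p = 0.0216, lost in 6 of 13 fits without a library). COL25A1, a membrane-spanning collagen of neurons, fell in H1944 under TGF-β1 to 1.36, 0.833 and 1.57 CPM in the high and 0.611, 1.81 and 0.784 CPM in the low gate, against 6.73, 5.41 and 7.38 CPM (-2.51 ± 0.41, adjusted p = 2.14e-06). COL13A1, also membrane-spanning and known from neuromuscular junctions, rose in A549 under GSK126 (2.19 ± 0.61, adjusted p = 0.0346, lost in 8 of 13 fits without a library; 3.06 without naive library A) on 4.20 and 8.84 CPM in the high and 9.2, 6.46 and 6.05 CPM in the low gate, against 3.19, 0.434 and 1.07 CPM.

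The reporter gates were compared within each treatment. The transcript of mVenus, by whose fluorescence the cells were sorted, had 859 ± 49.2 CPM in the high and 243 ± 35.8 CPM in the low gate of H1944 under GSK126 (SD, n = 3 each), and 2346 ± 82.5 CPM in the high and 791 ± 34.3 CPM in the low gate under TGF-β1. In A549 the mVenus difference itself did not pass between the gates under TGF-β1 (1.25 ± 0.34, adjusted p = 1) or GSK126 (1.02 ± 0.32, adjusted p = 0.74). In H1944 under GSK126, 10 of the 26 tested collagens were higher in the high gate and 1 was lower, against 3.62% and 3.31% of all genes (6.93% in all), with a median of 0.64 beside 0.03. COL18A1 had 135, 131 and 152 CPM in the high gate and 51.7, 63.3 and 72.5 CPM in the low gate (1.15 ± 0.13, adjusted p = 2.72e-07). COL7A1 differed by 1.13 ± 0.10 (adjusted p = 8.88e-10), COL1A1 by 0.89 ± 0.13 (4.63e-05), COL4A1 by 0.82 ± 0.09 (4.86e-08) and COL4A2 by 0.68 ± 0.09 (8.34e-06). These 5 kept their call in every alternative run, and their gates did not overlap. COL14A1 was the 1 gene lower in the high gate (-0.92 ± 0.20, adjusted p = 0.00357), a call lost without low-gate library B (log2 -0.74, adjusted p = 0.0718).

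The other 5 gate calls in H1944 under GSK126 lay close to the threshold and did not hold in every fit. Each was also lost in fits without a TGF-β1 or naive library, which are not part of this comparison. COL5A1 (1.75 ± 0.53, adjusted p = 0.0392), COL5A2 (1.02 ± 0.32, adjusted p = 0.0451), COL8A1 (0.66 ± 0.21, adjusted p = 0.0464), COL6A2 (0.62 ± 0.18, adjusted p = 0.0279) and COL6A1 (0.50 ± 0.14, adjusted p = 0.0308) each lost the call in 6 to 12 of the 15 fits that left out a library. For COL5A1 the high gate read 2.86, 2.07 and 9.63 CPM, the last value being that of library C, which also held 73.2 CPM of olfactory receptor reads, against 7.03 to 14.5 CPM in the other high-gate libraries; without it the log2 value was 1.06 (adjusted p = 0.297). COL22A1 did not pass (0.76 ± 0.27, adjusted p = 0.0875). The count of 11 calls fell to between 6 and 7 without any of 9 libraries, among them low-gate libraries B and C, high-gate library C and naive library A.

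**Figure D5:**
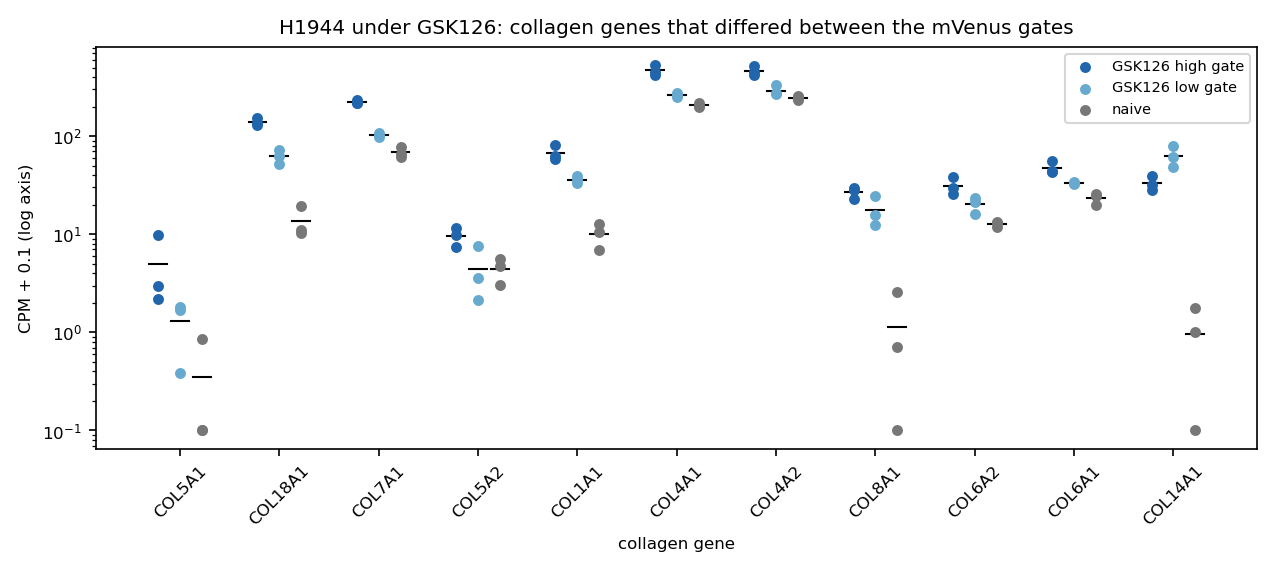
CPM + 0.1 on a log axis for the 11 collagens that differed between the H1944 GSK126 gates, with high-gate, low-gate and naive libraries from left to right within each gene and black lines at means. For COL18A1, COL7A1 and COL4A1 the 3 high-gate points stand above the 3 low-gate points, and COL14A1 shows the opposite order.

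Between the TGF-β1 gates of H1944 no collagen passed, where 0.0147% of all genes were higher and 0.044% lower (0.0587% in all). DESeq2 called 0. Of 26 collagens, 5 were higher and 1 lower at an unadjusted p under 0.05, which 5.15% of all 13621 genes reached. COL1A1 differed by 0.25 ± 0.10 and COL4A1 by 0.12 ± 0.08 on the log2 scale. The COL5A1 gates did not overlap, and its difference (0.53 ± 0.14, adjusted p = 0.405) passed when no filter on low counts was applied (0.56, adjusted p = 0.0408). Nor did those of COL7A1, COL8A1, COL16A1 and COL18A1, which read higher in the high gate. Those of COL5A3 and COL6A3 did not overlap and read lower in the high gate. The share of all genes whose gates did not overlap was not counted in either line. Lack of overlap alone was therefore not read as a gate difference. In A549 neither gate comparison called any gene with edgeR (0% of all genes). At an unadjusted p under 0.05, TGF-β1 gates had 3 of 41 collagens higher and 0 lower, and GSK126 gates had 1 higher and 2 lower. Of all 19842 genes an unadjusted p under 0.05 was reached by 197 (0.993%) between the A549 TGF-β1 gates. Between the A549 GSK126 gates 986 (4.97%) reached it. DESeq2 called 1 collagen between the A549 TGF-β1 gates, COL4A1 (0.87 ± 0.20, adjusted p = 0.0181), and 0 between the GSK126 gates. In edgeR COL4A1 had 914, 712 and 673 CPM in the high gate and 485 and 398 CPM in the low gate (0.81 ± 0.26, adjusted p = 1), with no overlap.

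TGF-β1 was also set directly against GSK126. In H1944, 17 collagens were higher under TGF-β1 and 3 lower, against 31.6% and 32.1% of all genes (63.8% in all), with a median of 1.58. The widest of the higher ones were COL5A1 (6.77 ± 0.18, adjusted p = 2.41e-26), COL1A1 (6.43 ± 0.09, adjusted p = 2.44e-33), COL3A1 (5.21 ± 0.36, adjusted p = 2.05e-14), COL22A1 (4.75 ± 0.13, adjusted p = 4.69e-26) and COL6A3 (4.40 ± 0.28, adjusted p = 1.76e-15), and the 3 lower were COL14A1, COL5A3 and COL25A1. In A549, 13 were higher and 3 lower, against 7.93% and 11.4% (19.3% in all), with a median of 1.08 beside 0.19 over all genes. COL22A1 led there (8.0 ± 0.42, adjusted p = 5.31e-10), followed by COL5A1 (5.04 ± 0.31, adjusted p = 2.07e-09), and the 3 lower were COL18A1 (-1.64 ± 0.23, adjusted p = 3.71e-05), COL4A6 (-1.73 ± 0.45, adjusted p = 0.00983) and COL6A1 (-0.93 ± 0.25, adjusted p = 0.0128). Of these, COL4A6 and COL6A1 each lost the call in 2 of 13 fits without a library. The COL4A6 value reached an adjusted p of 0.0939 without TGF-β1 low-gate library A. That of COL6A1 reached 0.122 without TGF-β1 low-gate library C, at a log2 value of -0.70. COL10A1, a collagen of growth-plate cartilage, was called on 70 counts under TGF-β1 and 5 under GSK126 (4.30 ± 1.46, adjusted p = 0.0484), and lost the call in 8 of 13 fits without a library.

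Before treatment the lines held different collagens. Of 40 tested in the joint fit, 9 were higher and 17 lower in naive H1944 than in naive A549, against 23.9% and 22.9% of all genes (46.8% in all). Another scaling, RLE in place of TMM, moved the median of all genes by -0.15 in this comparison. COL4A1 had 216, 204 and 199 CPM in H1944 and 9.71, 7.38 and 8.54 CPM in A549 (4.64 ± 0.19, adjusted p = 2.68e-18). COL5A3 (3.96 ± 0.41, adjusted p = 3.17e-09), COL4A2 (3.49 ± 0.21, adjusted p = 2.12e-14) and COL6A2 (5.34 ± 0.38, adjusted p = 8.58e-13) were higher in H1944 as well. COL5A2 had 4.62, 2.91 and 5.50 CPM in H1944 and 106, 83.2 and 91.6 CPM in A549 (-4.24 ± 0.27, adjusted p = 5.96e-14), and COL12A1 (-4.02 ± 0.23, adjusted p = 1.03e-14) and COL4A6 (-3.84 ± 0.84, adjusted p = 0.000381) were likewise lower in H1944. COL3A1 was called lower (-4.55 ± 1.32, adjusted p = 0.00558), but without A549 naive library A, rich in background reads, it read -2.63 (adjusted p = 0.137). Without both background-rich A549 libraries 11 were lower and 10 higher. The calls lost were those of COL1A2, COL2A1, COL3A1, COL6A3, COL6A5 and COL14A1. Olfactory receptor genes summed to 8.37 ± 3.7 CPM in naive H1944 and 86.0 ± 95.5 CPM in naive A549 (SD, n = 3 each). Their part in these calls was not tested.

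Whether the treatment effect itself differed between the lines was tested with an interaction term. For TGF-β1 the effect in H1944 minus that in A549 was positive for 12 of 40 collagens and negative for 4, against 10.5% and 9.48% of all genes (20% in all). COL3A1 (7.82 ± 1.41, adjusted p = 9.61e-05), COL12A1 (6.90 ± 0.28, adjusted p = 9.29e-18), COL8A1 (6.60 ± 0.86, adjusted p = 6.4e-07) and COL18A1 (3.50 ± 0.31, adjusted p = 4.14e-10) were among the positive ones. Without A549 naive library A the COL3A1 value was 5.87 and that of COL8A1 5.60. The 4 negative ones were COL5A3 (-4.60 ± 0.63, adjusted p = 1.39e-06), which fell in H1944, and COL22A1 (-2.41 ± 0.46, adjusted p = 0.000199), COL4A1 (-2.06 ± 0.21) and COL4A2 (-1.72 ± 0.24), which rose in both lines and less in H1944. The COL22A1 value was -3.30 without A549 naive library A. For GSK126 the difference was positive for 8 and negative for 4, against 6.18% and 3.73% (9.91% in all). COL12A1 (5.13 ± 0.27, adjusted p = 2.05e-14), COL14A1 (3.94 ± 0.92, adjusted p = 0.00385) and COL8A1 (3.68 ± 0.89, adjusted p = 0.00512) were among the positive ones. The COL14A1 and COL8A1 calls were lost without A549 naive library A (2.39, adjusted p = 0.14, and 2.65, adjusted p = 0.0949). COL4A3 and COL4A4 were positive as well, having fallen in both lines and less in H1944. The 4 negative ones, COL6A2 (-2.36 ± 0.51, adjusted p = 0.00178), COL4A2, COL4A1 and COL6A1, rose in both lines and less in H1944.

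Collagen chains are modified, folded, trimmed and cross-linked by other proteins. In H1944 under TGF-β1, where 63.7% of all tested genes passed (32.1% higher and 31.6% lower), 6 of 10 prolyl hydroxylases and partners, which stabilise the helix, rose and 2 fell, with P4HA3 (7.99 ± 0.26, adjusted p = 9.74e-24) and P4HA2 (3.44 ± 0.13, adjusted p = 5.32e-22) foremost. All 4 tested lysyl hydroxylases and glycosyltransferases, which prepare cross-links, rose, led by PLOD2 (3.53 ± 0.13, adjusted p = 2.02e-22). Of 10 chaperones and export factors 6 rose and 2 fell: SERPINH1, the collagen chaperone HSP47, rose (2.01 ± 0.13, adjusted p = 4.29e-15), while CREB3L1, a transcription factor of collagen secretion, fell (-4.82 ± 0.42, adjusted p = 3.95e-12). Of 3 procollagen proteinases and enhancers tested 2 rose and 1 fell, with BMP1, which trims procollagen, rising (1.62 ± 0.10, adjusted p = 8.48e-16). Cross-linking enzymes had 2 of 3 higher, LOXL2 (1.47 ± 0.12, adjusted p = 6.05e-13) and LOXL1 (2.96 ± 0.28, adjusted p = 2.71e-11). Collagen receptors had 7 of 8 higher, among them the integrin subunit ITGA11 (7.87 ± 0.23, adjusted p = 6.7e-25) and the uptake receptor MRC2 (7.97 ± 0.28, adjusted p = 1.22e-22). All 4 tested collagen-degrading proteases rose, led by the gelatinase MMP2 (11.38 ± 0.18, adjusted p = 4.32e-32) and FAP (8.20 ± 0.28, adjusted p = 3.92e-23), as did both tested proteoglycans, LUM and DCN.

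In A549 under TGF-β1, where 19% of all genes passed, the counts were 2 higher and 1 lower of 10 prolyl hydroxylases (P4HA3 4.68 ± 0.28, P4HA2 2.15 ± 0.22, P4HB -0.72 ± 0.22), 1 of 5 lysyl-modifying enzymes (PLOD2 1.43 ± 0.25), 0 of 10 chaperones, 1 of 8 proteinases (BMP1 1.93 ± 0.22), 2 of 6 cross-linking enzymes (LOXL2 2.15 ± 0.25, LOX 2.96 ± 0.69), 3 of 9 receptors (ITGA11 6.78 ± 0.35), 4 of 8 proteases (MMP2 5.08 ± 0.35) and 1 of 4 proteoglycans (LUM 3.97 ± 0.48). In H1944 under GSK126, where 40.2% of all genes passed, prolyl hydroxylases had 4 higher and 2 lower, lysyl-modifying enzymes 2 higher, chaperones 3 higher and 3 lower (CREB3L1 -4.31 ± 0.37), proteinases 2 higher and 1 lower, cross-linking enzymes 1 higher (LOXL1 2.11 ± 0.28) and 1 lower (LOXL2 -1.23 ± 0.13), receptors 4 higher and 2 lower, proteases 2 higher (MMP2 3.48 ± 0.32, FAP 2.63 ± 0.52) and proteoglycans 1 higher (LUM 4.40 ± 0.53). In A549 under GSK126, where 6.77% of all genes passed, the calls were PCOLCE2 (0.77 ± 0.19), LOXL2 (1.10 ± 0.24), MMP2 (2.37 ± 0.31) and LUM (2.02 ± 0.51), 1 each in their lists and 0 in the other 4. Between the H1944 GSK126 gates, where 6.93% of all genes passed, CREB3L1 was higher in the high gate (3.45 ± 0.74), as were P4HA2 (0.79 ± 0.14), BMP1 (0.44 ± 0.12), LOXL2 (0.75 ± 0.18), MRC2 (1.26 ± 0.34) and MMP2 (1.27 ± 0.23).

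The remaining members were at low levels. In H1944 18 collagens had too few counts to be tested, with no group mean above 4.08 CPM, and in A549 COL8A2, COL9A3 and COL26A1 were not tested, with no group mean above 0.95 CPM. Of all 44 collagens, 6 to 11 in the H1944 groups and 9 to 19 in the A549 groups stood less than 3-fold above olfactory receptor genes per kb. By group means, expression of these was not detectable over background in that group at this depth. In naive A549 cells they included COL1A1 at 0.25, COL5A1 at 0.14 and COL6A2 at 0.056 CPM per kb, beside 0.0971 for olfactory receptor genes. In naive H1944 cells they included COL5A1 at 0.0224 and COL3A1 at 0.0037, beside 0.0094. By these group means, folds of these genes against naive cells start from a level not told apart from background. The A549 naive background was 0.2205, 0.0214 and 0.0494 CPM per kb in libraries A, B and C, so its mean leans on library A. In naive H1944 cells all COL5A1 counts came from library C, the deepest. Single libraries were not compared with background in this way. In A549 library B of the TGF-β1 high gate, 20 collagens read at least 5-fold higher than the mean of libraries A and C, among them COL1A2, COL2A1, COL3A1, COL11A1 and COL14A1. Exons of COL4A2, COL4A3, COL5A3, COL9A1, COL9A3, COL15A1, COL16A1, COL18A1 and COL19A1 overlap exons of a gene on the other strand. The sources used here do not give the strand setting of the counting, so reads of those partners cannot be told apart from theirs.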

How the data were processed

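The authors deposited raw read counts per gene, unnormalized, in 1 table of 60487 rows. Per the submitters' processing notes, bcl2fastq 2.20.0, STAR 2.6.0c, HTSeq 0.12.3 and GRCh 38 were used; the annotation and the strand setting are not given in the sources used here. Per the labels, libraries came from a low-input kit that keeps strand and takes total RNA. Symbols and lengths came from GENCODE 29 (56753 identifiers matched). A length was the union of all annotated exons of a gene and can exceed that of its main transcript. Ratios between chains and ranks per kb depend on these lengths. CPM were taken from library totals. Each line was fitted over its 5 groups with edgeR 4.0.16 in R 4.3.3 (filterByExpr, TMM, quasi-likelihood F test, Benjamini-Hochberg adjusted p of 0.05 over all genes), with both gates together against naive cells. A joint fit of 10 groups gave the line differences. SE is the log2 fold change divided by the root of F. The test was tried on simulated data. Alternatives were RLE scaling, no filter, DESeq2 1.42.0, a replicate block, a single gate, leaving out both background-rich A549 libraries, and leaving out each library. Reads carry no molecular identifiers, so counting intervals cover counting error only. Genes named were the 12 largest changes past the test, with at least 2 CPM in either arm, in each comparison with naive cells and 8 in the others, with their partner chains; other genes are named to complete a class or a count. The members and lists were chosen with earlier results of these data known.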

Additional observations from a re-analysis of the deposited data

Results flagged for a closer look

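The difference between the lines in the response to an agent passed the test (adjusted p under 0.05 for the interaction in the joint fit of all 28 libraries) for 28 pairs of gene and agent. Each value is the log2 effect in H1944 minus that in A549. Under TGF-β1 it was 7.82 for COL3A1, 6.90 for COL12A1, 6.60 for COL8A1, 3.50 for COL18A1, 3.01 for COL24A1, 2.98 for COL15A1 and 2.85 for COL6A3. It was 2.46 for COL5A2, 1.88 for COL4A3, 1.82 for COL1A1, 1.61 for COL4A4 and 0.82 for COL7A1. It was -4.60 for COL5A3, -2.41 for COL22A1, -2.06 for COL4A1 and -1.72 for COL4A2. A negative value means that the effect was lower in H1944 than in A549.

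Under GSK126 the difference was 5.13 for COL12A1, 3.94 for COL14A1, 3.68 for COL8A1, 3.25 for COL15A1, 2.25 for COL17A1 and 1.87 for COL18A1. For COL4A3 it was 1.39 and for COL4A4 1.17, both of which fell in each line and further in A549. It was negative for 4 genes that rose in each line, at -2.36 for COL6A2, -1.49 for COL4A2, -1.44 for COL4A1 and -1.27 for COL6A1.

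Some of these rest on single libraries. Without A549 naive library A, which holds 195 CPM of olfactory receptor reads, the TGF-β1 difference of COL1A1 read 1.44 (adjusted p = 0.053) and that of COL15A1 2.41 (0.0656). Without the same library the GSK126 differences of COL14A1 (2.39, adjusted p = 0.14), COL8A1 (2.65, 0.0949), COL15A1 (2.64, 0.121) and COL17A1 (1.72, 0.0811) did not pass either. The TGF-β1 difference of COL7A1 read 0.54 without A549 naive library C (adjusted p = 0.0903). Without H1944 naive library C, the deepest, the GSK126 differences of COL8A1 (3.05, adjusted p = 0.1) and COL15A1 (6.20, 0.0654) did not pass, and neither did that of COL14A1. The GSK126 difference of COL15A1 was lost in 9 of 28 such fits. COL15A1 had no naive H1944 counts without library C, so 6.20 does not measure the difference.

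Other differences kept their call but moved by over 1.5-fold when a single library was left out. Without A549 naive library A the TGF-β1 difference was 5.87 for COL3A1, 5.60 for COL8A1, 2.03 for COL6A3 and -3.30 for COL22A1, values on the log2 scale. Without library B of the A549 TGF-β1 high gate, the other background-rich one, it was 9.24 for COL3A1, 7.71 for COL8A1 and 3.66 for COL24A1. Without H1944 naive library C it was 9.21 for COL3A1, 5.97 for COL8A1 and 5.93 for COL15A1, and without H1944 naive library B 7.26 for COL8A1. COL3A1 and COL15A1 had no naive H1944 counts without library C, so their values there do not measure the difference. The GSK126 difference of COL8A1 was 4.33 without H1944 naive library B, that of COL17A1 3.32 without H1944 naive library C, and that of COL6A2 -3.29 without A549 naive library C.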

How the results depend on the processing

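Of 177 calls of a collagen, 4224 alternative fits kept 3982 and lost 242, and 0 reversed. Every alternative kept 24 of 25 calls in H1944 and 11 of 17 in A549 under TGF-β1, and 15 of 21 in H1944 and 7 of 13 in A549 under GSK126. The A549 GSK126 count was 8 with the low gate alone. In H1944 under GSK126 the high gate alone kept all 21 calls and the low gate alone kept 15. The 6 lost were those of COL4A2, COL4A5, COL5A1, COL11A2, COL22A1 and COL24A1. DESeq2 gave 1 call between the A549 TGF-β1 gates, as did leaving out both background-rich libraries, and fitting without a filter gave 1 between the H1944 TGF-β1 gates, against 0 in each. COL5A2, not past the test in H1944 under GSK126, ran between -0.10 (without low-gate library B, a change of sign) and 0.64 (without naive library C) when a library was left out. The low gate by itself also turned it negative (-0.25).

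Leaving out each library in turn gave 24 to 26 calls for H1944 TGF-β1, 17 to 21 for H1944 GSK126, 20 to 21 for H1944 TGF-β1 against GSK126, 14 to 20 for A549 TGF-β1, 7 to 16 for A549 GSK126 and 13 to 18 for A549 TGF-β1 against GSK126. The gates gave 6 to 12 in H1944 under GSK126, 0 to 1 under TGF-β1, and 0 in A549. The interactions gave 15 to 19 for TGF-β1 and 9 to 13 for GSK126, and the naive lines 20 to 34. The replicate letters mark no stated shared culture. Deviations of libraries with the same letter correlated at -0.131 to 0.202 in H1944 and -0.752 to 0.409 in A549, and 7 of 15 H1944 and 1 of 13 A549 libraries correlated best with their own letter, so the letters were not taken as pairs. With the letter as a block the fit called 8 higher and 2 lower collagens in A549 under GSK126 and 9 higher and 1 lower between the H1944 GSK126 gates. Depth limits what can be said of COL1A2, COL3A1 and the members near background, and with a common coefficient of variation of 0.358 in A549, against 0.0978 in H1944, missed calls in A549 do not show that a gene did not change.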
